A study of Mus musculus with 6 samples.

Results

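The genes described are 10 members of the matrix metalloproteinase system, 3 inhibitors (Timp1, Timp2 and Timp3) and 7 enzymes (Mmp2, Mmp3, Mmp7, Mmp9, Mmp11, Mmp12 and Mmp14), of 18048 genes that have a probe with exactly 1 gene symbol in the platform annotation. They were taken from a list and not by their measured levels. Where a gene had several such probes, the one with the highest mean log2 level over all 6 arrays stood for it. That choice arose only for Timp2, so the 10 genes had 11 probes. Kidney RNA of 3 homozygous mutant mice was compared with that of 3 wild-type mice, 1 array per animal, and the series text calls the animals of a genotype different individuals. In both genotypes part of a kidney was snap-frozen after the vessels had been rinsed with PBS, and biotin-labelled cRNA was hybridised to single-colour CodeLink oligonucleotide arrays. The sources used here name neither the mutated gene and allele nor the strain, age or sex, so no transcript could be used to check the genotype labels. The comparison asks which of these transcripts differ in abundance between the genotypes.

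Matrix metalloproteinases are zinc-dependent enzymes that cut collagens, proteoglycans, cell-surface proteins and one another, and tissue inhibitors of metalloproteinases (TIMPs) bind their active sites and block them. Most of the enzymes are made as inactive proenzymes that other proteases open. On the cell surface the membrane-anchored enzyme MMP14 holds a TIMP2 molecule that in turn binds proMMP2, so that TIMP2 takes part in activating MMP2 as well as inhibiting it. In kidney these genes are best known from tubular injury and fibrosis, in which matrix is both laid down and broken down.

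Levels are array intensities divided by the median of their array, so that a level of 1 is the median probe. Differences are on the log2 scale, positive where mutants were higher, and stand with the SE of a limma fit over 25834 probes (n = 3 arrays per genotype throughout). "Rose" and "fell" are used past a Benjamini-Hochberg adjusted p of 0.05. A low-signal limit of 1.51 times the array median was estimated from the values, because no detection flags were used here. Where wild type had a mean below it, only a lower bound of the fold is given. Fitted log2 differences of such genes, in the text or figures, are not read as folds. The share of probes above that limit ran from 37.6% to 41.8% per array. Of the kidney markers, 7 of 8 of proximal tubule (Slc34a1 among them), 3 of 3 of thick ascending limb (Umod), 4 of 5 of collecting duct (Aqp2) and 3 of 4 of podocytes (Nphs1) lay above the limit on all 6 arrays. The exceptions were Slc5a2 (above on 1 array), Slc4a1 (above on 3) and Podxl (above on 0). Replicate 1 of each genotype stood apart in sex-linked signal, with Xist at 7.98 in mutant replicate 1, against 0.74 and 0.86 in the other mutants, and at 4.64 in wild-type replicate 1, against 0.76 and 0.56 in the other wild types. The Y-linked Eif2s3y was at 0.162 in mutant replicate 1, against 11.0 and 8.05 in the other mutants, and at 0.0435 in wild-type replicate 1, against 9.33 and 10.4 in the other wild types.

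Expression of 6 of the 10 genes rose in mutant kidney and 0 fell (limma), while at an unadjusted p under 0.05 1 was lower, Timp3. Of all 14817 genes tested 5.67% rose and 1.59% fell, 7.26% in all. The share of all genes at the unadjusted cut was not computed, here or for the lists below. All 10 genes passed the filter on dim probes. The risers were the inhibitors Timp1 and Timp2 and the enzymes Mmp2, Mmp7, Mmp11 and Mmp14, and their 3 mutant arrays lay above their 3 wild-type arrays in every case. Among genes measured on all 6 arrays, 17.1% lay above and 8.74% below wild type without overlap. Timp3 was the 1 member that lay below without overlap, and the groups overlapped for Mmp3, Mmp9 and Mmp12. The median difference of the 10 genes was 1.501 log2 units, against 0.08 for all genes tested. Of the genes that passed over the whole array, 78.1% were higher in mutants, a share that became 63.5% with quantile normalization and 65.2% with cyclic loess. The number of the 10 genes that rose was 6 under both. In whole-kidney RNA, more cells of a type and more RNA per cell cannot be told apart.

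**Figure D1:**
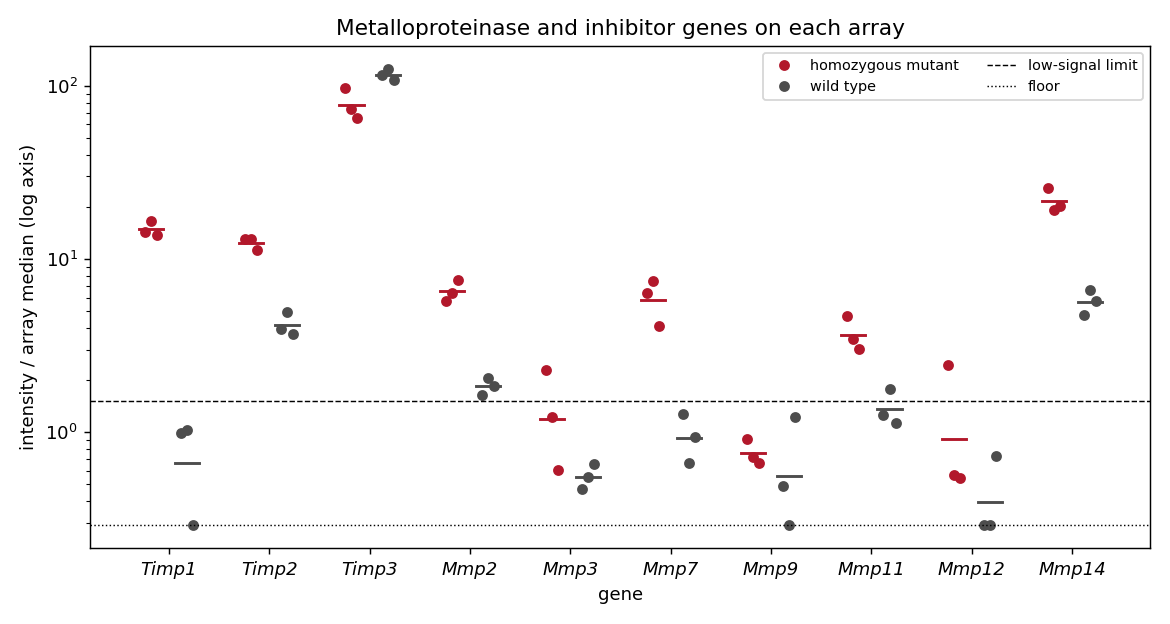
Intensity relative to the array median (log axis) of each of the 10 genes on 3 homozygous mutant arrays (red, left of each pair) and 3 wild-type arrays (grey, right of each pair). Each point is 1 animal, horizontal bars are means of log2 values, the dashed line is the low-signal limit of 1.51 and the dotted line the floor of 0.290, at which lower values are drawn. Timp1 and Mmp7 lie above the limit on all mutant arrays and below it on all wild-type arrays, and heights of different genes are not comparable because each has its own probe.

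Promoters are shown for the 5 genes at the contrast in sequence, 4 that rose (Timp1, Timp2, Mmp7 and Mmp14) and Mmp3, which did not pass but shares a motif with Mmp7. Each window runs from 250 bases before to 50 bases after the annotated gene start in RefSeq on GRCm38.p6, read 5′ to 3′ on the gene's own strand. Of the 10 genes, 8 matched a window by symbol and gene ID, without Mmp2 and Mmp9. Capitals mark 2 motifs searched on both strands, and no occurrence of one overlapped the other. TGANTCA is a consensus for AP-1 factors, and GGGCGG is the GC box bound by Sp1-type factors. Sites that depart from these letters were not searched, so a window without a match can still hold a site for such factors. The tgagtaa near the end of the Timp1 window, for example, differs from TGANTCA and is not marked.
Timp1, chrX:20869916-20870215, plus strand: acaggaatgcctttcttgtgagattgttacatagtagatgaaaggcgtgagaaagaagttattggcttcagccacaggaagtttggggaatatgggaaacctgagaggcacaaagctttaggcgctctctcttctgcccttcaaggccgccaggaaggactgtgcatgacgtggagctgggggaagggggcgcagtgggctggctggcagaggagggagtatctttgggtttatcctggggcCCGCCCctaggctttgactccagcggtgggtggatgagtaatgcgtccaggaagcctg
Timp2, chr11:118355362-118355661, minus strand: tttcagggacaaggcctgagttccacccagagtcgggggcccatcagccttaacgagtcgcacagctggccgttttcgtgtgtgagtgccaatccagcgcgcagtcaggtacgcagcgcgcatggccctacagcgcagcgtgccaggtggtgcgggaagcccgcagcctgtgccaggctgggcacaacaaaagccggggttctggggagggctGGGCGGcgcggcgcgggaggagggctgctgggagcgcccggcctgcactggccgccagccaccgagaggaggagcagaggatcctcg
Mmp14, chr14:54431348-54431647, plus strand: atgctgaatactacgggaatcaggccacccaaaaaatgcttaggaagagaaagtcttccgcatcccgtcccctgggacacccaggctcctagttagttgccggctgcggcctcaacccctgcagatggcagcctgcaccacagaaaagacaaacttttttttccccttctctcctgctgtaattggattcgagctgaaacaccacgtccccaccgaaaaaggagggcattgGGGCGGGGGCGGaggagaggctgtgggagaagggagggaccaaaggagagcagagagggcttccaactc
Mmp7, chr9:7691840-7692139, plus strand: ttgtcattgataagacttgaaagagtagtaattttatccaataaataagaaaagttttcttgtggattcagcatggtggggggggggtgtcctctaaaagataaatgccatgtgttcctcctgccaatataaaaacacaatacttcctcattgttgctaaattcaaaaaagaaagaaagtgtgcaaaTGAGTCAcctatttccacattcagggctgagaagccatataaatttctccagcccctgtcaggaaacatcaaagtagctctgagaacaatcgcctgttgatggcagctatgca
Mmp3, chr9:7445572-7445871, plus strand: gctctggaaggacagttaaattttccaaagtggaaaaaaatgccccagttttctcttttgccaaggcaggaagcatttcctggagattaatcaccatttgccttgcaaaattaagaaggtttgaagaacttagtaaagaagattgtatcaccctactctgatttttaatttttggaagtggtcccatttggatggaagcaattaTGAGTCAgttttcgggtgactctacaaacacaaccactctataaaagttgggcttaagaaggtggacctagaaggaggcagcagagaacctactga
TGANTCA was found in 2 of the 8 windows, those of Mmp7 and Mmp3, as TGAGTCA in each. Of 32851 mouse promoter windows of 300 bases, 7.81% hold it. GGGCGG was found in the windows of Timp1, Timp2, Timp3, Mmp11 and Mmp14, 5 of 8, against 35.7% of all windows. The Mmp3, Mmp7 and Mmp12 windows, all from chromosome 9, had between 38.7% and 40% G and C, and the other 5 windows had between 55.0% and 68.7%. A match is a description of the letters and not evidence of binding.

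Among the inhibitors, Timp1 differed most. Timp1 (gene 21857, chromosome X, 20870166 to 20874737) encodes a secreted inhibitor of many metalloproteinases and is induced in injured and scarring tissue. Its level was 14.3, 16.5 and 13.8 in mutant replicates 1, 2 and 3, against 0.994, 1.04 and 0.0117 in wild-type replicates 1, 2 and 3. All mutant arrays were close together and well above the low-signal limit, and all wild-type arrays were below it. Timp1 was therefore at least 9.85-fold higher in mutants (limma, adjusted p = 1.37e-05). The fitted difference of 4.47 ± 0.40 depends on wild-type replicate 3, which was raised to the floor, and was 3.87 ± 0.22 without that array and 6.02 ± 1.32 with no floor. Replicate 1 of the mutants, with the high Xist signal, lay between the other mutants for this X-linked gene.

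Timp2 (gene 21858, chromosome 11, 118301061 to 118355411), the inhibitor that bridges MMP14 and proMMP2, had levels of 13.0, 13.1 and 11.3 in mutants, against 3.94, 4.93 and 3.71 in wild types. The lowest mutant array was above the highest wild-type array by a wide margin. Timp2 rose by 1.58 ± 0.17 log2 units, or 2.99-fold (limma, adjusted p = 7.13e-05). Its other probe had values between 0.0875 and 0.601 in mutants and between 0.185 and 1.21 in wild types, below the low-signal limit on all 6 arrays, and was too dim for the fit.

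Timp3 (gene 21859, chromosome 10, 86300412 to 86349505), an inhibitor that stays bound to the matrix and also blocks ADAM sheddases, went the other way in level. It stood at 97.6, 73.6 and 65.5 in mutants, against 115, 126 and 108 in wild types. The groups did not overlap, with mutant replicate 1 nearest to wild type. The difference was -0.58 ± 0.17 log2 units, with a 95% interval of the fit from -0.94 to -0.21, and did not pass (limma, adjusted p = 0.0718). Without mutant replicate 1 it was -0.74 ± 0.17 and passed (limma, adjusted p = 0.0292). That omission leaves the high Xist signal in wild type only. With only replicates 2 and 3 of both genotypes, which have low Xist, the Timp3 difference also passed (-0.75 ± 0.16, limma, adjusted p = 0.0282). With all 6 arrays it also passed with robust variance, array weights or the replicate block (limma, adjusted p = 0.0382, 0.0372 and 0.0351).

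**Figure D2:**
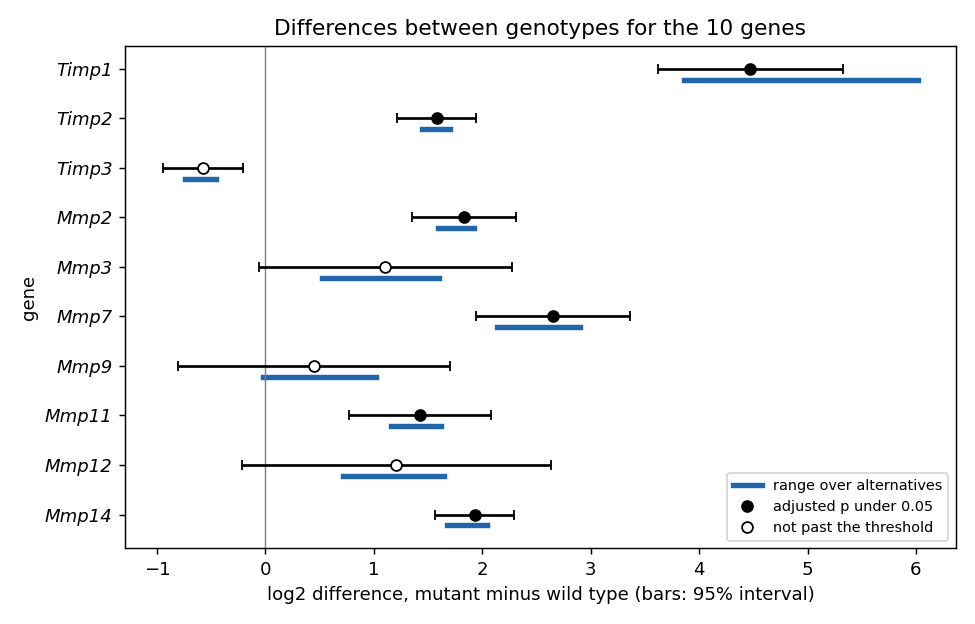
Difference between genotypes for each of the 10 genes, as mutant minus wild type in log2 units, with the 95% interval from limma (black bars, n = 3 arrays per genotype). Filled points passed an adjusted p of 0.05, open points did not, and blue bars give the range of the difference over the processing alternatives. Timp1, at 4.47, extends to 6.02 with no floor, and Timp3, at -0.58, is negative over its whole range.

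The membrane-anchored enzyme and the gelatinase that it activates rose together. Mmp14 (gene 17387, chromosome 14, 54431598 to 54442456) encodes MT1-MMP, a collagenase of the cell surface. Its level was 25.7, 19.2 and 20.3 in mutants, against 4.75, 6.61 and 5.76 in wild types. Mutant replicate 1 was the highest array and wild-type replicate 1 the lowest. Mmp14 rose by 1.93 ± 0.17 log2 units, or 3.81-fold (limma, adjusted p = 1.26e-05), the smallest adjusted p of the 10 genes.

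Mmp2 (gene 17390, chromosome 8, 92827290 to 92853421) encodes gelatinase A, which degrades denatured collagen and collagen IV of basement membranes and is made largely by stromal cells. Its level was 5.77, 6.41 and 7.62 in mutants, against 1.63, 2.06 and 1.86 in wild types. All 6 arrays were above the low-signal limit, the wild types by little. Mmp2 rose by 1.83 ± 0.22 log2 units, or 3.56-fold (limma, adjusted p = 0.000196).

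The ratio of 2 probes within an array does not depend on the constant by which the array is scaled, and 4 such log2 ratios were computed from probes above the limit on all arrays. The ratio of Mmp14 to Timp3 was higher in mutants by 2.51 log2 units (SD over arrays 0.14 in mutants and 0.21 in wild types), and that of Mmp2 to Timp3 by 2.41 (SD 0.49 in mutants and 0.15 in wild types). In both the genotypes could not overlap, because Mmp14 and Mmp2 lay above and Timp3 below wild type without overlap. The exact two-sided permutation p of each was thereby fixed at 0.1 (0.2 after Benjamini-Hochberg adjustment over the 4). That is the smallest p that 3 against 3 arrays allow, and it adds nothing to the results of the single genes. The ratios of Mmp14 to Timp2 and of Mmp2 to Timp2 differed by 0.35 and 0.25, with exact permutation p of 0.2 and 0.3 (adjusted 0.267 and 0.3). In both ratios to Timp2 the mutants and wild types overlapped. Since no p under 0.1 can be reached, the test does not show whether Timp2 changed by as much as Mmp14 and Mmp2.

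Among the smaller secreted enzymes, Mmp7 showed the clearest change. Mmp7 (gene 17393, chromosome 9, 7692090 to 7699585) encodes matrilysin, which in kidney is made by tubular epithelium after injury and cleaves E-cadherin and other surface proteins. Its level was 6.41, 7.47 and 4.12 in mutants, against 1.28, 0.662 and 0.941 in wild types. All mutant arrays were above the low-signal limit and all wild-type arrays below it, so Mmp7 was at least 3.86-fold higher in mutants (limma, adjusted p = 0.000252).

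Mmp11 (gene 17385, chromosome 10, 75923221 to 75932502) encodes stromelysin 3, a stromal enzyme that furin activates inside the cell. Its level was 4.69, 3.45 and 3.04 in mutants, against 1.26, 1.79 and 1.13 in wild types. Mutants were above the limit on all 3 arrays and wild types on 1 of 3, and Mmp11 was at least 2.30-fold higher in mutants (limma, adjusted p = 0.0133). The call was lost in limma without mutant replicate 1 (adjusted p = 0.0853), without mutant replicate 2 (adjusted p = 0.0568), with only replicates 2 and 3 (adjusted p = 0.0919) and with no intensity trend in the variance (adjusted p = 0.085). With no intensity trend the whole array gave 143 genes higher and 6 lower, and Timp1, Timp2, Mmp2, Mmp7 and Mmp14 passed there too.

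The remaining enzymes had mean levels below the low-signal limit in both genotypes. Their fitted log2 differences are given with the test and are not read as folds. Mmp12 (gene 17381, chromosome 9, 7344397 to 7360461) encodes macrophage metalloelastase. Its level was 2.43, 0.565 and 0.547 in mutants, against 0.286, 0.245 and 0.728 in wild types, and the difference of 1.21 ± 0.66 log2 units did not pass (limma, adjusted p = 0.395). Mutant replicate 1 alone was above the limit.

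Mmp3 (gene 17392, chromosome 9, 7445822 to 7455975) encodes stromelysin 1, an activator of several proenzymes. Its level was 2.29, 1.22 and 0.604 in mutants, against 0.472, 0.551 and 0.654 in wild types, and again mutant replicate 1 alone was above the limit. The difference of 1.11 ± 0.54 did not pass (limma, adjusted p = 0.328), with a 95% interval of the fit from -0.06 to 2.27.

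Mmp9 (gene 17395, chromosome 2, 164940326 to 164955850) encodes gelatinase B, which neutrophils and macrophages carry. Its level was 0.912, 0.722 and 0.669 in mutants, against 0.487, 0.260 and 1.23 in wild types. Values of the genotypes interleave below the limit on all 6 arrays, and the difference of 0.45 ± 0.58 did not pass (limma, adjusted p = 0.771). A difference in Mmp9 was not detectable at this signal.

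Other metalloproteinases and inhibitors moved in both directions. Of 43 genes listed, 38 had a probe with 1 symbol and 30 passed the filter. Of those 30, 8 rose and 2 fell, against 5.67% and 1.59% of all genes tested. The median difference was 0.26 log2 units, against 0.08 for all genes. Both genotype means lay below the limit for 21 of the 38, among them the fourth inhibitor Timp4, which was too dim for the fit, and the membrane-anchored inhibitor Reck.

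The risers included ADAM and ADAMTS genes, which also made up most of the genes tested from this list. Adamts5, an aggrecanase that cuts large proteoglycans, had levels of 6.39, 7.49 and 8.25 in mutants, against 2.87, 3.47 and 2.69 in wild types, and rose by 1.29 ± 0.20 log2 units (limma, adjusted p = 0.00125). Bmp1, the proteinase that trims the C-terminal ends of fibrillar procollagens, rose by 1.12 ± 0.19, and the membrane-anchored Adam19 by 1.15 ± 0.20. Adam12 was below the limit on all wild-type arrays and at least 1.59-fold higher in mutants. Adamts1 (1.02 ± 0.23), Mmp23 (0.96 ± 0.26), Adamts7 (0.94 ± 0.22) and Adam15 (0.56 ± 0.14) also rose. The number that rose was 3 without mutant replicate 1, without mutant replicate 3 or with only replicates 2 and 3, and 4 without mutant replicate 2 or wild-type replicate 3. It was 5 without wild-type replicate 1 and 0 with no intensity trend in the variance. Of 23 alternatives Mmp23 lost its call in 15, Adam15 in 11, Adam12 in 9, Adamts7 in 8 and Adamts1 in 7, each of them with only replicates 2 and 3, and Mmp23 and Adam15 also with quantile normalization and cyclic loess.

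Those that fell were Mep1a and Mep1b, the subunits of meprin, a metalloproteinase of the proximal tubule brush border. Mep1b had levels of 35.4, 53.6 and 45.6 in mutants, against 88.2, 103 and 105 in wild types. Every mutant array was below every wild-type array, and Mep1b fell by 1.15 ± 0.17 log2 units (limma, adjusted p = 0.000837). Mep1a fell by 0.69 ± 0.17 (limma, adjusted p = 0.0332), a call lost when mutant replicate 1, mutant replicate 2, wild-type replicate 2 or wild-type replicate 3 was left out (adjusted p from 0.0706 to 0.156) and with only replicates 2 and 3 (limma, adjusted p = 0.0697). Neither meprin gene passed with no intensity trend. Proximal tubule markers moved with them: 4 of 8 fell and 0 rose, and the sum of their levels was 250 to 267 in mutants, against 406 to 458 in wild types. The part of that fall in the meprin difference was not tested.

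Of 35 genes that activate, bind or clear these enzymes, 31 had a probe and 26 were tested. Of those 26, 8 rose and 0 fell (limma), against 5.67% and 1.59% of all genes tested. At an unadjusted p under 0.05 3 were lower, a count with no share of all genes to set beside it. The median difference was 0.54 log2 units. Lrp1, the endocytic receptor that removes metalloproteinases and their inhibitor complexes from the matrix, had levels of 62.9, 31.1 and 22.3 in mutants, against 8.19, 9.54 and 8.68 in wild types. Mutant replicate 1 was far above the other mutants, and all 3 were above wild type, for a rise of 2.00 ± 0.27 (limma, adjusted p = 0.000495). Thbs2, a matricellular protein that binds MMP2 and hands it to that receptor, was at least 2.40-fold higher in mutants.

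The annexin Anxa2, part of a cell-surface receptor for plasminogen, rose by 1.32 ± 0.17 log2 units, and its partner S100a10, measured on 2 of 3 mutant arrays, rose by 0.87 ± 0.19. Nid1, a basement membrane protein that metalloproteinases cut, rose by 1.24 ± 0.19. Pcolce, which enhances BMP1, rose by 0.80 ± 0.13. The tight junction gene Cldn1 rose by 1.06 ± 0.22. The proteinase trap A2m passed as higher (limma, adjusted p = 0.0301) and is counted among the 8. Both its genotype means were below the limit, so no fold is given. Wild-type replicates 1 and 2 were raised to the floor, and 1 mutant array was above the limit. A2m passed the filter on dim probes only through the mutants, as its wild-type log2 mean of -1.54 was under the lowest mean kept (-0.897). Its call was lost in 8 of 23 alternatives, among them only replicates 2 and 3 (limma, adjusted p = 0.236) and leaving out any 1 array other than wild-type replicate 3. S100a10 lost its call with quantile normalization and without wild-type replicate 3, and Cldn1 without mutant replicate 2. Having no value on mutant replicate 3, S100a10 could be tested in only 19 of the 23 alternatives. Furin, the convertase that opens proMMP14 and proMMP11, had levels of 68.1, 46.1 and 39.96 in mutants, against 38.3, 67.3 and 49.6 in wild types. The genotypes overlapped, and the difference of -0.01 ± 0.22 (95% interval of the fit from -0.48 to 0.46) did not pass (limma, adjusted p = 0.992). None of the 8 genes that rose passed with no intensity trend in the variance, and 5 rose without mutant replicate 2, where S100a10 was not tested.

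**Figure D3:**
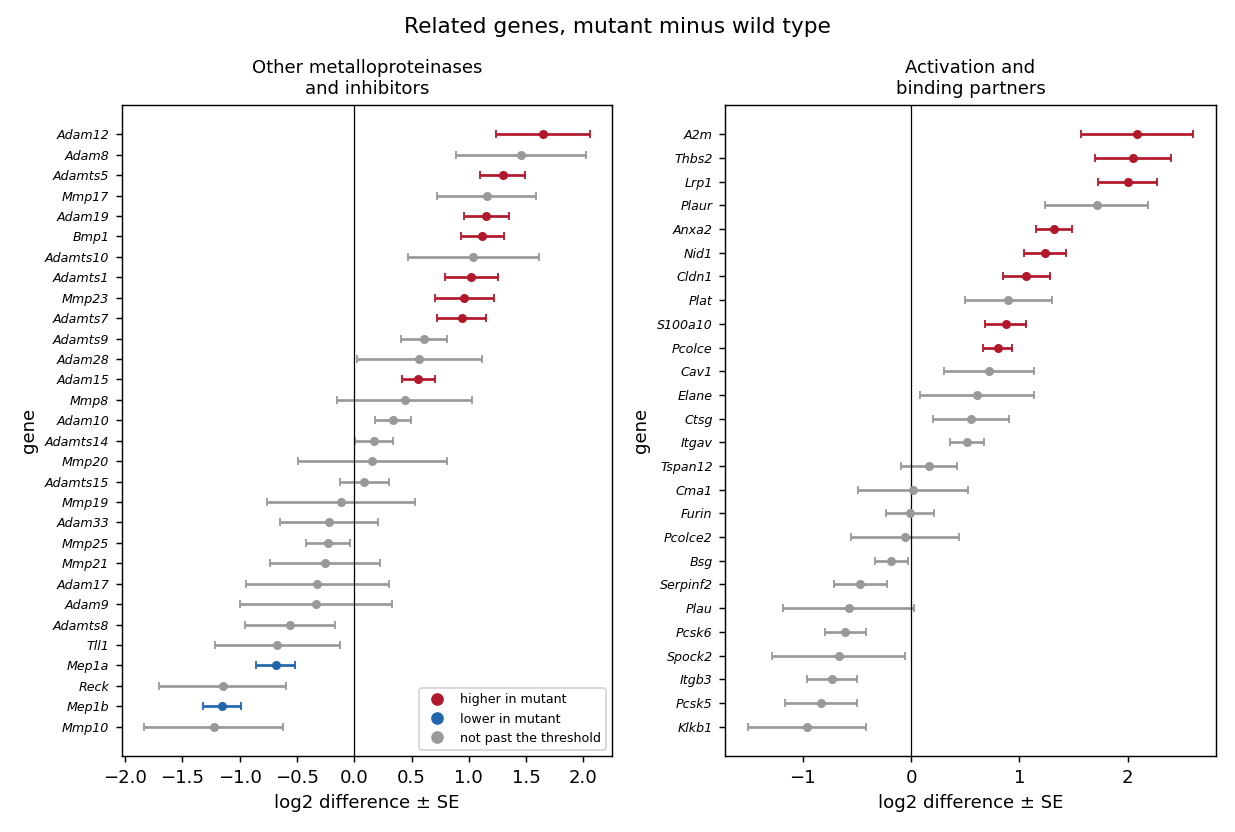
Log2 difference between mutants and wild types, with its SE from limma, for 30 other metalloproteinases and inhibitors (left) and 26 activation and binding partners (right), n = 3 arrays per genotype. Red genes rose and blue genes fell past an adjusted p of 0.05, and grey genes did not pass. On the left 8 genes are red and 2, the meprin genes Mep1a and Mep1b, are blue, and on the right 8 are red.

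Markers of some other cell types, but not all, moved with these genes. Of those tested, 1 of 5 of endothelium rose (Tie1, a call lost in 9 of 23 alternatives). None passed of 5 of collecting duct, 3 of thick ascending limb and 3 of podocytes. Over all genes tested, 5.67% rose and 1.59% fell. Fibroblast markers had a summed level of 360 to 413 in mutants, against 80.8 to 132 in wild types, and 7 of 10 rose, among them Col1a1, Dcn and Pdgfrb. Col3a1 made up most of that sum, at 218 to 232 in mutants and 41.4 to 72.2 in wild types. Macrophage markers summed to 86.5, 58.9 and 60.6 in mutants, against 14.2, 14.3 and 14.1 in wild types. Of the 8 with a probe 4 rose (Cd14, Lyz2, Fcgr1 and C1qa), while Adgre1, Itgam and Cd163 were below the limit on all arrays. Mutant replicate 1 had the highest macrophage sum and was also the array on which Mmp12 and Mmp3 were above the limit. The macrophage sum was not alone in this. That array also had the highest fibroblast (413), tubular injury (224), neutrophil (10.7) and thick ascending limb (286) sums. Its smooth muscle sum (137) was the lowest of the mutants. Neutrophil markers summed to 9.24 to 10.7 in mutants, against 6.71 to 9.47 in wild types, and 0 of 7 tested passed (limma, 1 at an unadjusted p under 0.05), with 5 of 9 below the limit on all arrays. Smooth muscle markers summed to 137 to 171 in mutants, against 65.5 to 77.9 in wild types, and 5 of 6 rose. Tubular injury markers summed to 202 to 224 in mutants, against 43.2 to 60.7 in wild types, with 4 of 4 tested higher. Most of that sum was Clu, at 144 to 158 in mutants and 39.5 to 55.6 in wild types. Sox9 and Cd44 were below the limit on all arrays and were not tested. The part of any of these cell types in the differences of the metalloproteinase and inhibitor genes was not tested.

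**Figure D4:**
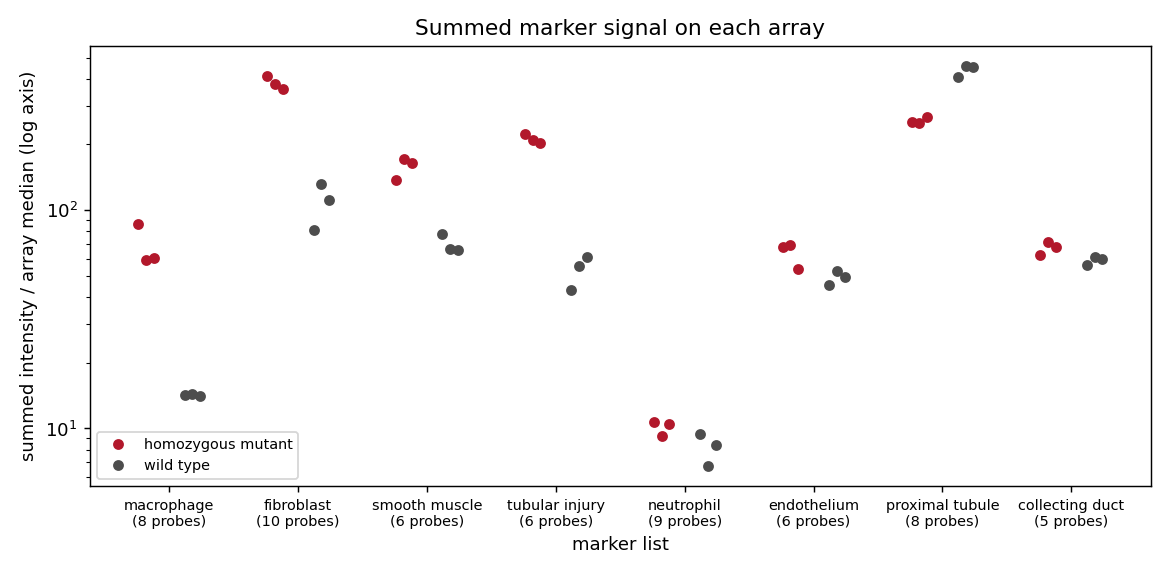
Sum of the levels (intensity relative to the array median, log axis) of the markers of 8 cell types or states on each of 3 homozygous mutant arrays (red, left) and 3 wild-type arrays (grey, right), with the number of probes summed. Fibroblast, macrophage, smooth muscle and tubular injury sums are higher on every mutant array than on any wild-type array, and the proximal tubule sum is lower. Endothelium and collecting duct sums are higher by less, with 1 of 5 and 0 of 5 tested markers past the threshold.

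The genes most like Timp1 and Mmp14 over the 6 arrays were found by the root mean square difference between log2 profiles centred on their own means, among 13469 genes measured on all arrays. For Timp1 they were the chemokines Cxcl1 (0.63 log2 units), Cxcl2 (0.72) and Ccl12 (0.78), the ubiquitin-like Ubd (0.76) and the diamine oxidase Aoc1 (0.82). For Mmp14 they were Anxa1 (0.09), an annexin that dampens inflammation, C1qb (0.09), a chain of complement C1q, Plac8 (0.09), the myeloid adaptor Tyrobp (0.10) and Igfbp2 (0.11), which binds insulin-like growth factors. Profiles of Mmp14 and its neighbours differed by far less than those of Timp1 and its neighbours, whose wild-type values lay near or below the low-signal limit, apart from Aoc1. Anxa1, for example, had levels of 51.2, 45.7 and 42.3 in mutants, against 10.9, 14.8 and 13.1 in wild types. As for Mmp14, the highest mutant array was replicate 1 and the lowest wild-type array was replicate 1. That shared order restates the choice of Anxa1 by its likeness to Mmp14.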

How the data were processed

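Each sample's deposited column holds intensity values, 1 per probe, on a linear scale. Some values were at or below 0, and array medians lay between 0.994 and 0.997. The software, the background correction and the scaling used by the authors were not stated. Each array was divided by its median, values at or below 0 (2.66% to 3.46% of an array) were left out, values under the 10th percentile (0.290) were raised to it, and log2 was taken. Probes needed values on 2 arrays per genotype, and the dimmest 25% were left out, which left 25834 probes and 14817 genes. The comparison of mutants with wild types used lmFit and eBayes with an intensity trend (limma 3.58.1, R 4.3.3), two-sided, with Benjamini-Hochberg adjustment over all probes. The code was tested on simulated data, in which known log2 changes were added to few probes. Above 1.5 times the array median, a change of 1 was recovered for 9 of 33 probes and a change of 2 for 16 of 21. Below that level the counts were 0 of 17 and 1 of 29, and a change of 3 was recovered for 11 of 26. In the data 7.26% of genes passed, a larger share than was changed in the simulation, so these counts are not the power of the fit to the data. For dim probes and small changes, not passing still does not show that a gene was unchanged. The low-signal limit is the mode of the linear values (0.521) plus 3 times the spread below it (0.329). The number of arrays limits the precision.

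Gene names come from the platform annotation (21590 probes with 1 symbol, 681 with several, 12666 with none). Gene positions and promoter sequences come from RefSeq, GRCm38.p6. The 10 genes, the lists of related genes and markers, and the low-signal limit were chosen with earlier results of these data known. Genes named besides the 10 are up to 8 past the threshold per direction and list by smallest p, the 5 nearest profiles of Timp1 and Mmp14, and markers. Furin, Timp4, Reck and the markers below the limit were named after their values were seen. Alternatives covered scaling, floor, filters, variance model, replicate block, thresholds, probe choice and leaving out arrays.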

Additional observations from a re-analysis of the deposited data

How the results depend on the processing

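The number of the 10 genes that rose was 5 or 6 in all 23 alternatives. Timp1, Timp2, Mmp2, Mmp7 and Mmp14 passed in each, with limma adjusted p of at most 0.0395, and Mmp11 lost its call in 5. Timp3 stayed negative in all 23, from -0.75 to -0.45, and was the 1 member that fell with robust variance, array weights, the replicate block (limma, adjusted p = 0.0351), only replicates 2 and 3, or without mutant replicate 1. Mmp9 turned to -0.0244 without wild-type replicate 2 and ranged up to 1.02 when other arrays were left out. The cause of these changes was not tested.

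Genes higher over the whole array numbered 840, and 143 with no intensity trend, 456 at an adjusted p of 0.01, 511 with at least 2-fold and 502 with only replicates 2 and 3. Genes lower numbered 235, and 403 after quantile normalization, 398 after cyclic loess, 6 with no intensity trend, 353 with array weights, 363 with the replicate block, 88 at 0.01 and 63 with at least 2-fold. Other metalloproteinases higher numbered 8, and 5 after cyclic loess or with at least 2-fold, 0 with no intensity trend and 3 at 0.01 or with only replicates 2 and 3. Those lower numbered 2, and 0 with no intensity trend and 1 at 0.01, with at least 2-fold or with only replicates 2 and 3. Partners higher numbered 8, and 0 with no intensity trend and 5 at 0.01. Partners lower numbered 0, and 1 after quantile normalization, cyclic loess, array weights or only replicates 2 and 3, and 2 with the replicate block.

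Leaving out each array in turn gave 5 to 6 of the 10 genes higher and 0 to 1 lower, 475 to 803 and 113 to 248 over the array, 3 to 7 and 1 to 2 other metalloproteinases, and 5 to 8 and 0 to 1 partners. Of 410 alternative values of the 18 named related genes, 84 lost the call and 0 changed direction. The labels give same-numbered animals only a number in common. Deviations of such pairs from the group means correlated at 0.07, 0.02 and 0.07, and every array correlated best with its own number. Deviations from a mean of 3 arrays are tied to one another, so these correlations are not independent and do not show a pairing. Replicate 1 of both genotypes stood apart in sex-linked signal. Leaving it out of 1 genotype alone makes the groups unlike in that signal. Probes below the low-signal limit, Mmp3, Mmp9 and Mmp12 among them, give no fold.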
